A study of Rattus norvegicus with 8 samples.

Results

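The genes described here encode the proteins that cut and polyadenylate nascent transcripts, together with RNA-binding proteins that steer which 3′ end a neuronal transcript receives. Members were taken from a list of 36 gene symbols, and a row belonged to a member when its symbol equalled one of them. Of the 36, 35 had at least 1 row, out of 18003 gene symbols in all, and they held 330 of 98356 alternative polyadenylation (APA) sites. Cpsf4 had no row under that symbol and was not analysed here.

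The libraries were made from the hypothalamus of adult male Long-Evans rats by whole transcriptome termini site sequencing (WTTS-Seq), in which each read marks the 3′ end of a polyadenylated RNA. In the cannabis group (4 libraries), rats breathed vapor from whole cannabis plant matter (7.8% THC, 0.5% CBD) over 10 min. In the control group (4 libraries), air-treated rats sat in the same apparatus with an empty vaporizer. All rats had been habituated to the chamber, and food was removed for the 1 hr between exposure and tissue collection. Control libraries are numbered 1, 2, 3 and 4 and cannabis libraries 1, 2, 3 and 5, as in the labels. The paper's cohort for this experiment held more rats per group, and the labels do not say that each library came from a single rat.

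The libraries held from 1159811 to 3706778 reads on sites. Values are normalized counts, the reads on a site divided by the size factor of the library, and 1 read was worth from 0.664 to 1.99 normalized counts. A gene total is the sum over all sites that carry its symbol, whatever their class. The paper's classes for sites assigned to genes include intronic and antisense ones. Only 8 member sites were classed here, so totals may include such ends. Totals were not divided by gene length, since a transcript gives 1 end whatever its length, and they leave out sites without a symbol, which held 13.9% of all reads. Control replicate 4 and cannabis replicate 1 stood apart, with no read on 26.1% and 17.0% of all sites against 3.32% to 10.3% in the other libraries. For several named results, values without 1 or both of these libraries are given too. Of the 34 members with a mean of at least 10 normalized counts, 15 (44.1%) had their lowest total in control replicate 4 or cannabis replicate 1, beside 44.4% of the 12114 genes at that level.

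Cell type markers were examined in the same totals. All 6 neuronal markers (Snap25, Syt1, Stmn2, Gad1, Gad2 and Slc17a6) had reads, and their sums were 2177 to 2575 normalized counts in controls and 2365 to 2658 in cannabis-exposed rats. Sums of the oligodendrocyte markers overlapped between groups, as did those of the astrocyte, microglia, choroid plexus and pituitary markers. Gh1 and Prl had no row, so the pituitary sum rested on Pomc, Cga and Tshb. The sums of the endothelial markers, of which 3 of 4 had reads, did not overlap, at 81.1 to 87.95 in controls and 93.0 to 115.5 in cannabis-exposed rats. Of these 3 markers, 2 had a mean under 10 normalized counts, so the sum rested mostly on 1 gene. Among all single gene totals, 1.98% separated completely. None of the 29 marker genes measured had a limma P under 0.05. The part of these cell types in the results was not tested.

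Cleavage and polyadenylation take place in the nucleus as RNA polymerase II passes the end of a gene. The cleavage and polyadenylation specificity factor (CPSF) recognizes the AAUAAA hexamer and cuts the RNA, cleavage factor Im binds UGUA upstream of the cut, the cleavage stimulation factor (CstF) binds U- and GU-rich sequence downstream of it, and a poly(A) polymerase adds the tail. Neurons are known for long 3′ untranslated regions, and the Elavl, Nova, Mbnl, Rbfox and Celf proteins bind near splice sites and poly(A) sites to alter which exon or end is used.

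No gene total of these factors differed between cannabis-exposed rats and controls by more than the spread between libraries. In the limma fit of all 18003 gene totals, none of the 35 members had an adjusted P under 0.1, and the smallest adjusted P among them was 0.999, beside 0.00555% of all genes called at that threshold. None had an unadjusted P under 0.01, against 0.278% of all genes, and none had P under 0.05, against 2.41%. edgeR and DESeq2 on the recovered reads also gave 0 members with P under 0.05. In no member did the 4 cannabis values and the 4 control values separate completely, which 1.98% of all genes did. On the log2 scale 17 members had a higher and 18 a lower estimate in cannabis-exposed rats, and the median was -0.05 over the members and 0.05 over all genes. In such tissue samples, fewer cells of a type and less RNA per cell cannot be told apart.

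**Figure D1:**
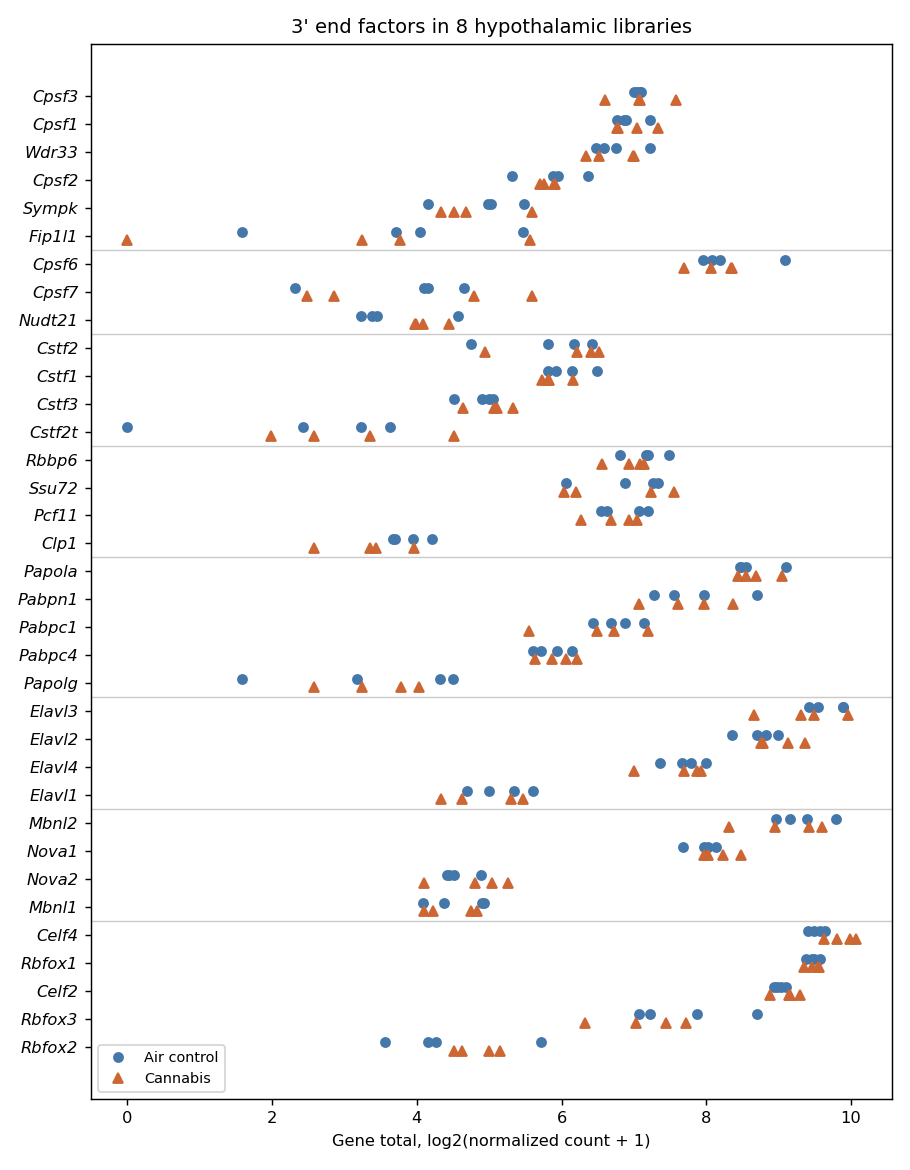
Gene totals of the 35 members in each library, as log2(normalized count + 1) on the horizontal axis, with air controls as circles and cannabis-exposed rats as triangles and genes grouped by role between grey lines. The highest member is Celf4, with a mean of 839.9 normalized counts, the lowest is Cstf2t with 7.91, and the groups overlap in every row.

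In the CPSF complex, Cpsf3 was the most-read subunit. It encodes the endonuclease that makes the cut. Its single site had 130.9, 137, 134 and 127 normalized counts in control replicates 1 to 4, and 95.6, 191, 133 and 134 in cannabis replicates 1, 2, 3 and 5. The controls lay close together and inside the range of the cannabis-exposed rats. The difference was 0.03 on the log2 scale (standard error 0.23, limma P = 0.916, exact permutation test P = 0.743). Cpsf1, the large scaffold subunit, had a mean of 124.5 over the 8 libraries, Wdr33, which contacts the hexamer, 108, and Cpsf2 57.6. Sympk, which encodes the scaffold symplekin, had a mean of 29.5. Fip1l1, which encodes a subunit that contacts poly(A) polymerase, was the least steady member of the complex. It had 43.1, 15.6, 12.1 and 1.99 normalized counts in controls and 0, 12.6, 46.2 and 8.45 in cannabis-exposed rats. The cannabis library without a read allows up to 3.73 normalized counts, the worth of 3 reads. Its interval for the fold change, 0.152 to 3.04, was the widest of the CPSF genes. Of the 6 measured subunits, 2 had a higher and 4 a lower estimate, and none passed the test.

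In cleavage factor Im, Cpsf6 carried most of the reads. Cpsf6 and Cpsf7 encode alternative large subunits, and Nudt21 the small subunit that binds UGUA. Cpsf6 had 247, 292, 269 and 544 normalized counts in controls and 324, 266, 328 and 207 in cannabis-exposed rats. Control replicate 4 was the highest of the 8, and the other controls lay inside the cannabis range. Its log2 fold change was -0.21 (standard error 0.27, limma P = 0.435, exact permutation test P = 0.600), and 0.04 without control replicate 4. Nudt21 had 22.7, 8.38, 9.40 and 9.93 normalized counts in controls and 14.9, 15.9, 14.8 and 20.7 in cannabis-exposed rats. Every cannabis value lay above controls 2, 3 and 4 and below control 1. For Nudt21 the log2 fold change was 0.47 (standard error 0.39, limma P = 0.246, exact permutation test P = 0.400). Over all libraries Nudt21 rested on 135 reads, so an interval of 0.778 to 2.46 for the fold change remained. Cpsf7 ran from 3.97 to 24.1 in controls and from 4.61 to 47.2 in cannabis-exposed rats.

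CstF transcripts were of middle to low level. Cstf2, which encodes the RNA-binding 64 kDa subunit, had 70.9, 55.1, 84.6 and 25.8 normalized counts in controls and 29.8, 90.3, 83.6 and 73.0 in cannabis-exposed rats. The lowest value of each group was in control replicate 4 and cannabis replicate 1. Its log2 fold change was 0.23 (standard error 0.41, limma P = 0.579, exact permutation test P = 0.543). Cstf1 had a mean of 63.3, Cstf3 30.3, and Cstf2t, an intronless paralog of Cstf2 with near-identical stretches, 7.91. Reads may have been split between Cstf2 and Cstf2t in mapping, so the level of Cstf2t is uncertain. As far as reads were assigned, Cstf2 held 92.3% ± 6.07 of the pair in controls and 87.9% ± 6.74 in the cannabis group (SD, n = 4, exact permutation test P = 0.400).

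Pcf11 and Clp1 form cleavage factor IIm, Rbbp6 encodes a ubiquitin ligase of the cleavage complex and Ssu72 a phosphatase of the polymerase II tail. Rbbp6 had 178, 145, 143 and 111 normalized counts in controls and 140.3, 93.0, 121 and 134 in cannabis-exposed rats. Controls 1, 2 and 3 lay above every cannabis value and control 4 inside their range. The log2 fold change was -0.24 (standard error 0.23, limma P = 0.318, exact permutation test P = 0.257). Ssu72 ran from 65.5 to 159 in controls and from 64.6 to 186 in cannabis-exposed rats, and its values did not follow the groups. Control 4, cannabis 1 and cannabis 5 had 65.5, 64.6 and 72.2 normalized counts, and the other 5 libraries 116 to 186. Pcf11, which helps to end transcription, had a mean of 112. Clp1, an RNA kinase, had 13.9 ± 2.69 in controls and 9.66 ± 3.95 in the cannabis group (SD, n = 4, exact permutation test P = 0.171). These 4 genes all had a lower estimate in cannabis-exposed rats, none with a limma P under 0.05.

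Among the genes that make and bind the tail, Papola, the main nuclear poly(A) polymerase, was read most. It had 355, 352, 373 and 550.1 normalized counts in controls and 528, 409.9, 345 and 375 in cannabis-exposed rats. The highest value of each group was again in control replicate 4 and cannabis replicate 1. Its log2 fold change was 0.03 (standard error 0.22, limma P = 0.885, exact permutation test P = 0.857), with an interval of 0.740 to 1.41 for the fold. Papolg, a second nuclear polymerase, held 3.33% ± 2.54 of the reads of the pair in controls and 2.58% ± 1.27 in the cannabis group (SD, n = 4). Pabpn1, the nuclear poly(A)-binding protein that sets tail length, had 251 ± 116 and 227 ± 84.2 normalized counts. The cytoplasmic poly(A)-binding proteins also had overlapping groups, with 111 ± 23.4 for Pabpc1 and 57.2 ± 9.81 for Pabpc4 in controls, and 96.0 ± 41.0 and 61.1 ± 10.7 in the cannabis group (SD, n = 4, exact permutation test P = 0.600 and 0.571). Pabpc1 has processed copies in mammalian genomes, so reads may have been assigned elsewhere.

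**Figure D2:**
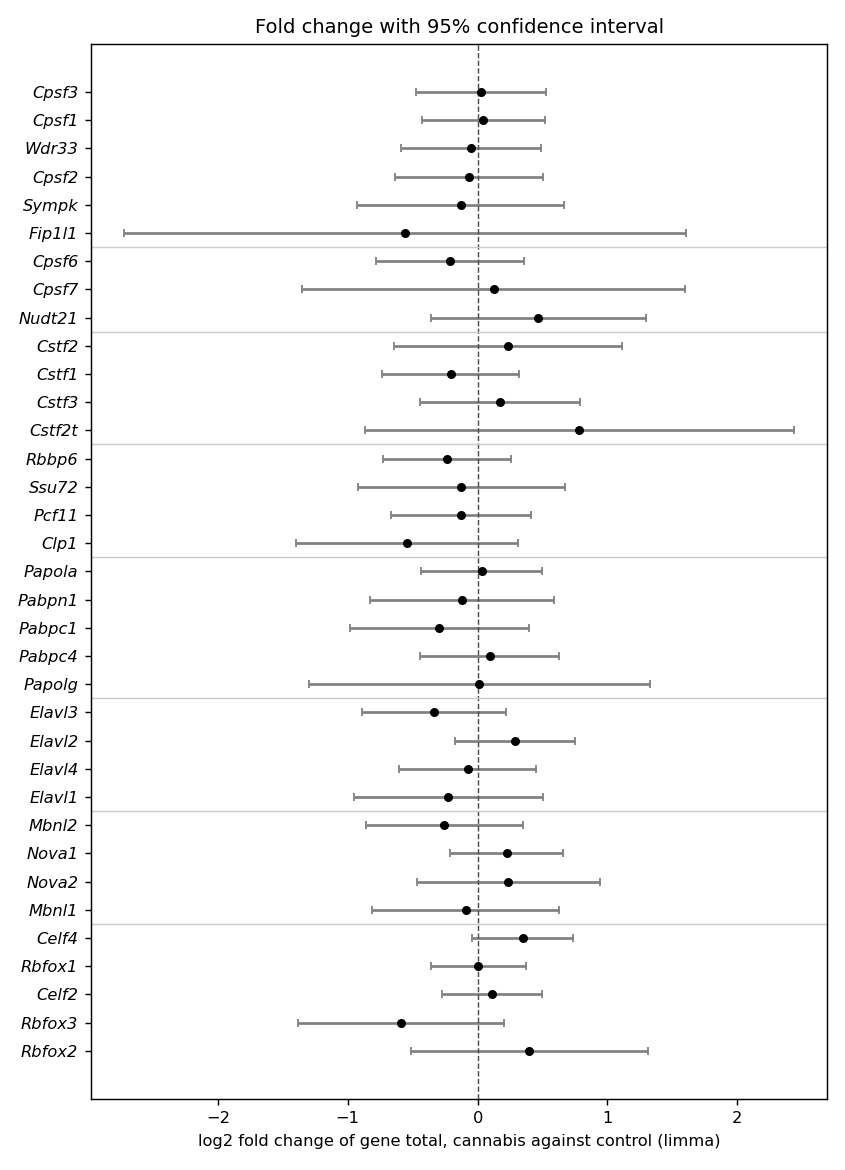
Log2 fold change of each gene total, cannabis against control, from limma (points) with its 95% confidence interval (bars), genes grouped by role. Every interval includes 0, from narrow ones at Rbfox1 and Celf2 to wide ones at Fip1l1 and Cstf2t.

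The 6 most-read members, from Celf4 to Elavl2, were RNA-binding genes of the Celf, Elavl, Rbfox and Mbnl families. Elavl3 encodes a neuronal protein that binds U- and AU-rich RNA. It had 951, 748, 681 and 945 normalized counts in controls and 995, 403, 715 and 632 in cannabis-exposed rats. Cannabis replicate 2 was the lowest and cannabis replicate 1 the highest of the 8. Its log2 fold change was -0.33 (standard error 0.26, limma P = 0.217, exact permutation test P = 0.371). With 1 library left out in turn it ranged from -0.54 to -0.10. The lower end came without cannabis replicate 1, with an unadjusted limma P under 0.05 and an adjusted P of 0.914, and the upper end without cannabis replicate 2. Its paralog Elavl2 averaged 425.6 ± 76.3 normalized counts in controls and 521 ± 107 in the cannabis group (SD, n = 4). That is 0.29 on the log2 scale (standard error 0.21, limma P = 0.200, exact permutation test P = 0.229). The total of Elavl4 came to 209 ± 37.5 and 202 ± 52.9 (SD, n = 4), and the ubiquitous Elavl1 had 35.7 ± 9.97 and 31.2 ± 11.6.

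As a share of the 4 Elavl genes, Elavl3 was the largest in 7 of 8 libraries. It held 55.1% ± 5.87 in controls and 46.7% ± 9.76 in the cannabis group (SD, n = 4, exact permutation test P = 0.171). Elavl2 held 28.4% ± 4.68 and 36.4% ± 6.40 (exact permutation test P = 0.0571, smallest possible 0.0286). The exception was cannabis replicate 2, with 45.3% Elavl2 and 32.6% Elavl3. Shares within 9 sets of paralogs were computed, a choice made after values were seen, and in none did the groups separate.

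**Figure D3:**
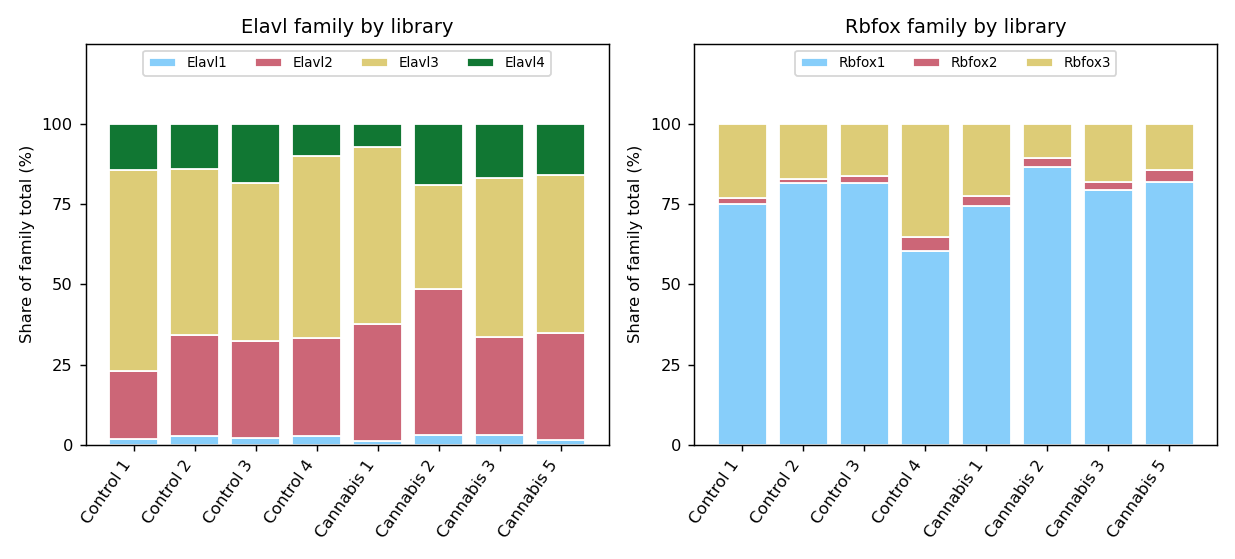
Share of the summed normalized counts held by each gene of the Elavl family (left) and the Rbfox family (right), in percent, 1 stacked bar for each library. Elavl3 leads in every library except cannabis replicate 2, and Rbfox1 leads in all 8, from 60.5% to 86.6%.

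Rbfox1 was the steadiest of all members. It encodes a splicing regulator that binds GCAUG. Its total came to 757, 703, 665 and 715 normalized counts in controls and 700.4, 654, 755 and 743 in cannabis-exposed rats. The coefficient of variation over the 8 libraries was 5.44%, where counting alone would give about 3.81%. Over the 3654 genes with a mean of at least 100 normalized counts, the median coefficient of variation was 23.4%, and it was 21.2% over the 19 members at that level. The log2 fold change of Rbfox1 was 0.01 (standard error 0.17, limma P = 0.974, exact permutation test P = 1.000). Its interval for the fold, 0.778 to 1.30, had the smallest ratio of bounds among the 35 members.

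Rbfox3, which encodes the neuronal nuclear antigen NeuN, varied most among the well-read members. It had 234, 148, 133 and 415 normalized counts in controls and 209.9, 79.0, 172 and 129 in cannabis-exposed rats, a coefficient of variation of 54.2%. Control replicate 4 was the highest and cannabis replicate 2 the lowest. The log2 fold change was -0.59 (standard error 0.37, limma P = 0.132, exact permutation test P = 0.286), the lowest estimate of the 35, and -0.26 without control replicate 4. Rbfox2 had 18.3, 10.8, 16.8 and 51.6 normalized counts in controls and 31.0, 21.9, 23.6 and 34.6 in cannabis-exposed rats. Control replicate 4 was again the highest. For Rbfox2 the log2 fold change was 0.40 (standard error 0.42, limma P = 0.362, exact permutation test P = 0.771). With 1 library left out it ranged from 0.11 without control replicate 2 to 0.83 without control replicate 4. The latter had an unadjusted limma P under 0.05 and an adjusted P of 1.000, and DESeq2 on all libraries gave 0.18.

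Celf4 had the smallest P among the 35 totals. Celf proteins bind GU-rich RNA, and Celf4 is a neuronal member. It had 719, 757, 677 and 796 normalized counts in controls and 789, 1015, 1073 and 895 in cannabis-exposed rats. Of the cannabis values, 3 lay above all controls, and cannabis replicate 1 lay just below the highest control. The difference was 0.35 on the log2 scale (standard error 0.18), a fold of 1.27 with an interval of 0.970 to 1.67. P was 0.0771 by limma (adjusted P = 0.999) and 0.0571 by the exact permutation test. With 1 library left out it ranged from 0.28 without cannabis replicate 3 to 0.43 without cannabis replicate 1. Without the 2 libraries with the most sites at 0, the log2 fold change was 0.47, with an unadjusted limma P under 0.05 and an adjusted P of 0.999. Celf2 was close to even, at 515 ± 27.3 and 558 ± 66.0 normalized counts (SD, n = 4).

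Mbnl2 encodes a muscleblind protein that binds YGCY motifs. It had 673, 567, 498 and 889.7 normalized counts in controls and 771, 685, 494 and 318 in cannabis-exposed rats. Control replicate 4 was the highest and cannabis replicate 5 the lowest. The log2 fold change was -0.26 (standard error 0.28, limma P = 0.376, exact permutation test P = 0.543). Mbnl2 held 96.3% ± 1.77 of the reads of the 2 Mbnl genes in controls and 95.9% ± 1.54 in the cannabis group (SD, n = 4). Likewise Nova1, which encodes a neuronal regulator that binds YCAY, held 91.5% ± 1.70 and 91.2% ± 2.75 of the reads of the Nova pair. Nova1 itself had 248 ± 31.9 and 291 ± 49.0 normalized counts (SD, n = 4, limma P = 0.288, exact permutation test P = 0.200).

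The precision of the comparison differed between members. For 26 of the 35, the 95% interval from limma lay within a 2-fold change in both directions. For 5, Cpsf1, Cpsf3, Papola, Rbfox1 and Celf2, it lay within 1.5-fold. Members whose interval reached beyond 2-fold included some with few reads, such as Nudt21, Clp1 and Papolg. They also included Rbfox3 and Cstf2, with 1482 and 622 reads and a wide spread between libraries. Mbnl1, with 206 reads, lay within 2-fold. A member with an interval beyond 2-fold could have differed by more without being detectable here.

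Other genes of 3′ end formation, from a list of 72 symbols of which 67 were measured, were counted in the same way. It held Integrator subunits, polymerase II kinases and phosphatases, the U1 small nuclear ribonucleoprotein, deadenylases and further RNA-binding proteins. None had a limma P under 0.01, and 2 had P under 0.05, near the 2.41% of all genes. Estimates were higher in cannabis-exposed rats for 44 and lower for 23. The median log2 fold change was 0.07, against 0.05 over all genes. The share of all genes with a higher estimate was not counted. The smallest P was at Pabpc1l, a poly(A)-binding protein known from oocytes, with 10.3 ± 8.46 normalized counts in controls and 2.34 ± 1.94 in the cannabis group (SD, n = 4, limma P = 0.0150, exact permutation test P = 0.0571). Next was Rprd2, which binds the polymerase II tail, with 76.3 ± 12.2 and 117 ± 34.1 (SD, n = 4, limma P = 0.0399, exact permutation test P = 0.0571). Slbp, the histone stem-loop binding protein, had 89.3 ± 88.4 and 32.1 ± 13.7 (SD, n = 4, limma adjusted P = 0.999), where control replicate 4 alone had 220.4. Ints2, of the Integrator complex, had 15.3 ± 5.52 and 26.4 ± 7.19 (SD, n = 4), and Pan3, of a deadenylase, 18.1 ± 5.85 and 27.6 ± 8.58, both with a limma adjusted P of 0.999.

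The single sites that carry the factors' symbols were described next, most of them without a known class. Sites are numbered within a gene by their mean over the 8 libraries, site 1 being the most-read. Cpsf1, Cpsf3, Sympk and Cstf2t had a single site. Rbfox1 had 90 sites, more than all but 11 of the 18003 genes, and Celf2 had 30, whereas the median gene had 2. The Rbfox1 reads were spread so widely that site 1 held 14.3% of them, with an effective number of sites of 20.2 (the inverse of the summed squared shares). At the other end, Elavl2 had 89.3% of its reads on site 1 although it had 10 sites, and Ssu72 had 88.8%. Other members spread over a few ends, with site 1 holding 49.7% at Elavl3, 46.5% at Celf4, 43.4% at Nova1, 41.1% at Pcf11 and 39.6% at Papola. The class and order of 8 member sites could be read from the study's site table. Site 1 was exonic at Celf2, Celf4, Elavl2, Elavl3, Mbnl2 and Pabpn1. Celf4 site 2 is also exonic and lies downstream of site 1, and Elavl3 site 2 lies beyond the annotated end of the transcript, as extended distal.

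No member passed the test of choice among these ends. Sites of a gene were compared with each other by limma diffSplice over sites with a mean of at least 10 normalized counts, in genes with at least 2 such sites. Of 3603 genes tested, 18 were members. None had an adjusted P under 0.1, against 0.0555% of the genes tested, none had P under 0.01, against 0.389%, and none had P under 0.05, against 2.86%. No other tool was run for this comparison. On simulated reads (dispersion 0.05), diffSplice at P under 0.01 found 40.1% of genes with a 2-fold change at 1 well-read site. At 4-fold it found 97.9%. The limma fit of gene totals found 92% of 2-fold changes there, placed in genes with a mean of at least 50 normalized counts. In this simulation end choice was thus less sensitive than totals. Of the 35 members, 12 had a mean total under 50, and the simulation used the same dispersion for all features. Its rates need not hold for members with few reads or a wide spread between libraries. The smallest adjusted P among the members was 0.981, which 17 of the 18 shared. By unadjusted P, Pabpn1 came first and Pabpc4, Mbnl2, Elavl4 and Celf4 next in order.

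**Figure D4:**
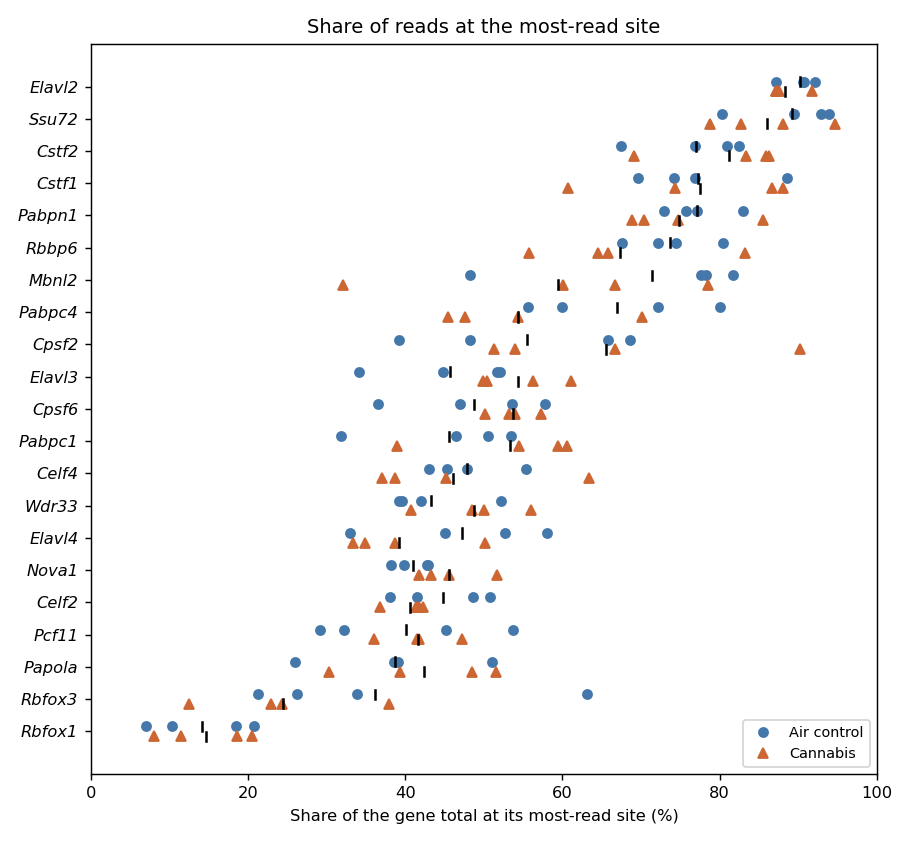
Share of a gene's normalized counts at its most-read site, in percent, for the 21 members with at least 2 sites and a mean total of at least 50 normalized counts, with circles for air controls, triangles for cannabis-exposed rats and black ticks for group means. The groups overlap in every row, from Elavl2 near the top with 89.3% to Rbfox1 at the bottom with 14.3%.

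The share of the most-read site gave the same count on a plain scale. In 0 of the 21 members tested did the groups separate, against 1.48% of 5080 genes. Pabpc4 site 1 held 60.0%, 72.1%, 55.6% and 80.0% of its gene in controls and 54.4%, 45.5%, 70.2% and 47.6% in cannabis-exposed rats, 66.9% ± 11.2 against 54.4% ± 11.2 (SD, n = 4). Mbnl2 site 1 held 77.6%, 78.3%, 81.7% and 48.2% in controls and 60.1%, 78.6%, 66.7% and 32.1% in cannabis-exposed rats (exact permutation test P = 0.429). Rbfox1 site 1 was lowest in control 4 and cannabis 1, at 6.94% and 7.98%, while group means were 14.1% ± 6.51 and 14.6% ± 5.88 (SD, n = 4). Elavl2 site 1 was the most even, at 90.2% ± 2.12 and 88.4% ± 2.23.

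Of the 330 member sites tested singly, none had an adjusted P under 0.1 in limma (0.00102% of all 98356 sites did) and none had P under 0.01 (0.381% of all sites). P was under 0.05 at 7 member sites, 2.1% of them, against 3.03% of all sites. edgeR on the recovered reads also gave 0 member sites with P under 0.01. The groups separated completely at 6 member sites, 1.8%, against 2.0% of all sites, so that the share of members was near the background. The lowest P, 0.0134, was at Mbnl2 site 7, which held 0.473% of the gene's reads and at most 12 reads in a library.

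Among the 92 member sites with a mean of at least 10 normalized counts, Celf4 site 2 had the smallest P. It had 216, 247, 191 and 234 normalized counts in controls and 184, 502, 383 and 419 in cannabis-exposed rats. Cannabis replicates 2, 3 and 5 lay above every control and cannabis replicate 1 below every control. The log2 fold change was 0.66 (standard error 0.31, limma P = 0.0449, adjusted P = 1.000), and the exact permutation test gave P = 0.143. Without cannabis replicate 1 it was 0.96 (limma adjusted P = 0.970), and without the 2 libraries with the most sites at 0 it was 0.99 (limma adjusted P = 1.000), in both cases with an unadjusted limma P under 0.01. Without cannabis replicate 2 it was 0.48. The upstream site 1 had 309, 342, 324 and 441 in controls and 499, 375, 485 and 346 in cannabis-exposed rats. As a share of Celf4, site 2 held 30.1% ± 1.83 in controls and 38.8% ± 11.9 in the cannabis group (SD, n = 4, exact permutation test P = 0.257), with 23.3% in cannabis replicate 1 and 35.7% to 49.5% in the others. Site 3 held 8.54% ± 0.832 and 5.16% ± 2.54 (exact permutation test P = 0.0857).

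Mbnl2 site 2 had 54.1, 15.6, 15.4 and 157 normalized counts in controls and 144, 83.7, 65.0 and 60.7 in cannabis-exposed rats. All cannabis values lay above controls 1, 2 and 3 and below control 4. The difference was 1.10 on the log2 scale (standard error 0.56, limma P = 0.0617, exact permutation test P = 0.514). Without control replicate 4 it was 1.77, with an unadjusted limma P under 0.01 and an adjusted P of 1.000. It was 0.69 without control replicate 2 and 0.68 without control replicate 3, and edgeR on all libraries gave 0.68. Its share of Mbnl2 was 7.88% ± 6.94 in controls and 15.8% ± 3.60 in the cannabis group (SD, n = 4, exact permutation test P = 0.114). Mbnl2 site 1 had 523, 444, 407 and 429 normalized counts in controls and 463, 538, 330 and 102 in cannabis-exposed rats, so its lower estimate rested on cannabis replicate 5.

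**Figure D5:**
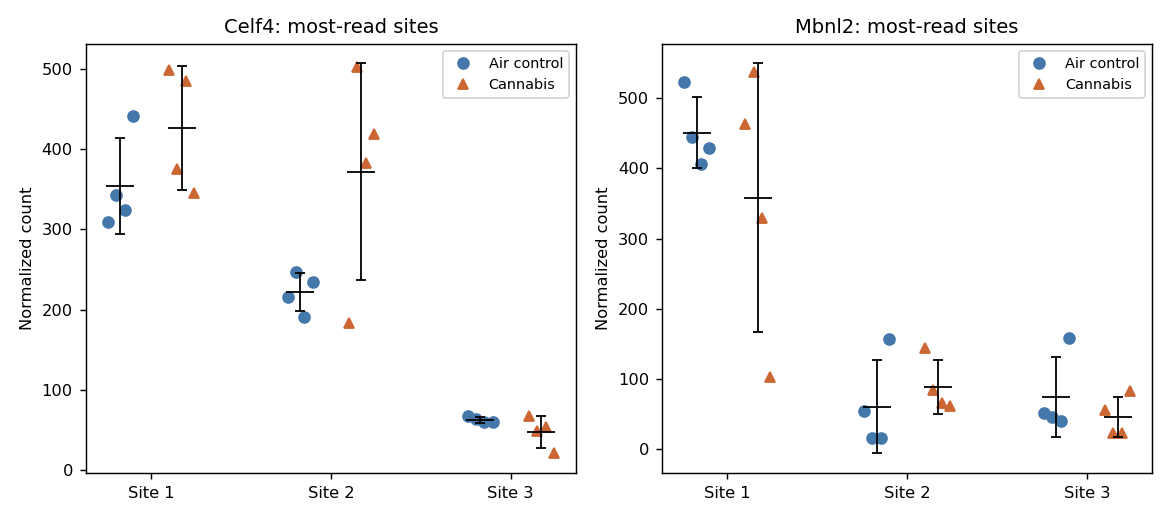
Normalized counts at the 3 most-read sites of Celf4 (left) and Mbnl2 (right). Circles are air controls, triangles cannabis-exposed rats, and black bars the mean and SD of 4 libraries. At Celf4 site 2, 3 cannabis libraries lie above all controls and 1 lies below them. At Mbnl2 site 2, control replicate 4 has 157 normalized counts against 15.4 to 54.1 in the other controls.

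The remaining sites of this kind had few reads or rested on single libraries. Pabpn1 site 3 had 57.8, 9.58, 17.5 and 5.96 normalized counts in controls and 0, 16.6, 0.984 and 17.7 in cannabis-exposed rats (limma P = 0.0458, exact permutation test P = 0.429). Its log2 fold change was -1.73, and -0.95 without cannabis replicate 1. Rbfox3 site 1 had 262 normalized counts in control replicate 4 and 16.1 to 79.5 elsewhere, with a log2 fold change of -1.11 (limma P = 0.0643, exact permutation test P = 0.343) and of -0.48 without that library. Elavl3 site 3 ran from 43.7 to 281 in controls and from 36.5 to 113 in cannabis-exposed rats (limma P = 0.0753, exact permutation test P = 0.200). Its log2 fold change was -0.95, -0.46 without control replicate 1 and -1.34 without control replicate 4. Elavl4 site 3 had 17.8 ± 10.8 and 33.0 ± 16.3, and Elavl4 site 5 had 12.7 ± 8.42 and 21.8 ± 9.09 (SD, n = 4, exact permutation test P = 0.286 and 0.229). Elavl4 site 3 had a log2 fold change of 0.89, 0.55 without control replicate 2 and 1.22 without the 2 libraries with the most sites at 0, with an unadjusted limma P under 0.05 in the last. The groups separated at Elavl2 site 4, with 3.66, 8.38, 8.06 and 5.96 normalized counts in controls and 14.9, 8.64, 17.7 and 13.1 in cannabis-exposed rats. There P was 0.0286 by the exact permutation test, the smallest that 4 against 4 libraries allow, and 0.0590 by limma, on at most 18 reads in a library. Rbfox1 site 3 completed the 10 sites with the smallest P at that level, with 72.9 ± 40.3 and 45.6 ± 15.4 (SD, n = 4, exact permutation test P = 0.257).

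The other 5 sites at which the groups separated had a mean under 10 normalized counts. Rbbp6 site 3 had 7.18 to 12.1 normalized counts in controls and 1.97 to 6.91 in cannabis-exposed rats. Rbfox2 site 3 had 0 to 3.97 and 4.97 to 7.87, and Mbnl2 site 7 had 0 to 2.19 and 2.48 to 9.22. Rbfox1 site 82 and Mbnl1 site 6 had at most 4.39 normalized counts in any library. Of the 6 separated sites, Elavl2 site 4, Rbfox2 site 3 and Mbnl2 site 7 had their higher values in the cannabis group, and Rbbp6 site 3, Rbfox1 site 82 and Mbnl1 site 6 in controls.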

How the data were processed

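The 8 libraries of rat hypothalamus RNA, 4 cannabis-exposed and 4 air-treated, were sequenced by WTTS-Seq on the Ion Torrent platform. The authors filtered reads by quality, trimmed leading Ts, aligned to Rnor_6.0 using TMAP, grouped nearby 3′ ends as an APA site and named genes with Cuffcompare. The signal the authors deposited is 1 normalized count per site and library (reads divided by the DESeq2 size factor). All values (100%) were whole multiples, to within 0.01 reads, of a step per library, so reads were recovered. Since mapped 3′ ends carry no molecular identifier, counting floors (3 reads) cover counting error only. The class of 8 sites came from the study's site table. Their order came from the positions and strands given there, and coordinates were not used otherwise.

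Gene totals and sites were tested with limma 3.58.1 (R 4.3.3; lmFit, eBayes with trend) on log2(normalized count + 1), without covariates or filter, with Benjamini-Hochberg adjustment over all genes or sites. Fold changes on this scale understate those of low genes. Thresholds were an adjusted P of 0.1, as in the study's methods, and unadjusted P of 0.01 and 0.05. Choice among sites was tested with diffSplice. Permutation tests were exact and two-sided. The fits were tested on simulated reads. edgeR 4.0.16 was an alternative for gene totals and sites, and DESeq2 1.42.0 for gene totals only. Further alternatives were a replicate block, other pseudocounts, a mean filter and leaving out libraries, and for totals and sites also equal totals and no trend. Genes given in full are the most-read of each role, those with P under 0.05 or separated groups, and the 10 sites with a mean of at least 10 with the smallest P. Others were chosen after their values were seen. The members and lists were chosen with earlier results of these data known. The labels number the replicates without saying more, so P measures the spread between these libraries. Permutation tests used numpy 2.4.6 (Python 3.11.15), tables pandas 2.3.3 and plots matplotlib 3.10.9.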

Additional observations from a re-analysis of the deposited data

Results flagged for a closer look

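Within groups of 4, a gene total was looked at again when its gap to the nearest other value divided by the range of the group exceeded the 95% critical value of Dixon's test. Of 70 groups, 3 met this, and chance gives about 1 in 20. Cpsf6 had 544 normalized counts in control replicate 4, against 247 to 292 in the other controls. Papola had 550.1 in the same library, against 352 to 373. Nudt21 had 22.7 in control replicate 1, against 8.38 to 9.93. Control replicate 4 had the fewest reads and the largest share of sites without a read, 26.1%, and the part of this in its high values was not tested.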

How the results depend on the processing

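No member total, member site or member 3′ end choice had an adjusted P under 0.1 in any of the alternatives run for it. Members with a total at P under 0.01 numbered 0 under all of them, and at P under 0.05 they numbered 0 to 2 with a library left out (Rbfox2 without control replicate 4, Celf4 and Elavl3 without cannabis replicate 1). Of 594 pairs of a member and an alternative, the log2 fold change moved by less than 1 standard error in 585, and 22 of the 35 members changed sign in at least 1 alternative. Counts at P under 0.01 over all features were 50 genes, 375 sites and 14 genes for end choice. With the replicate block they were 24, 229 and 5, with 2 member sites (Mbnl2 site 2 and Pabpn1 site 3) and 1 member choice at P under 0.05 (Mbnl2). Control replicate 4 and cannabis replicate 5 have no partner of the same number. The blocked difference therefore rested on replicates 1, 2 and 3 of each group, and it is not an adjustment of all libraries. Deviations from the group mean had correlations of -0.235, 0.0890 and -0.0699 over the 3 pairs of libraries with the same number. Pairs with unlike numbers ran from -0.388 (control replicate 4 with cannabis replicate 2) to 0.489 (control replicate 4 with cannabis replicate 1). The latter are the 2 libraries with the most sites at 0. Whether libraries with the same number share a batch cannot be told from these values. A mean of at least 10 gave 29 genes and 44 sites. eBayes without trend gave 98 genes and 1 member site (Mbnl2 site 7), and DESeq2 76 genes. For end choice, a site mean of at least 5 gave 25 genes and of at least 20 gave 6. With a library left out in turn, the ranges were 30 (without control replicate 1) to 90 genes (without cannabis replicate 1), 227 to 617 sites, 8 to 42 genes for end choice and 139 to 246 genes with separated shares. For members they were 0 to 3 sites (most without cannabis replicate 3), 0 to 1 choices (Mbnl2 without control replicate 4, Celf4 without cannabis replicate 1, Pabpn1 without cannabis replicate 2 or 5) and 0 to 2 separated shares. Without the 2 libraries with the most sites at 0, chosen after seeing the data, 2 member totals (Celf4, Rbfox2), 3 member sites (Celf4 site 2, Mbnl2 site 2, Rbfox2 site 3), 2 member choices (Celf4, Mbnl2) and 1 separated member share were found, the totals and choices at P under 0.05 and the sites at P under 0.01, with 25 genes at P under 0.01 for end choice. Separated shares rose from 75 to 385 genes there. Fewer samples separate more easily, and the part of this in the rise was not tested. For members with few reads or a wide spread between libraries, larger differences could go undetected.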
